A study of Homo sapiens with 24 samples.

Results

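The comparison described here is the early estrogen response of BT-474 cells that had received siRNA against HER2. It rests on 6 of the 24 arrays of the series, chosen by sample title: 3 arrays of cells with HER2 siRNA and 10 nM estrogen for 4 h, and 3 of cells with HER2 siRNA and vehicle (0.001% ethanol) for 4 h. BT-474 is an established human breast cancer line with an amplified ERBB2 gene, which encodes the receptor tyrosine kinase HER2, and it expresses the estrogen receptor. Control siRNA cells given the same estrogen or vehicle for 4 h, and HER2 siRNA cells given them for 24 h, were set beside it, each with 3 arrays per group. All of these groups carried an siRNA, so there is no untransfected group here, and 1 cell line was used. Levels are log2 RMA values of Affymetrix HG-U133 Plus 2.0 arrays, and a difference is estrogen minus vehicle on the log2 scale, ± its standard error, so that 1 unit is a 2-fold difference. Of 19775 genes with a probe set of their own, 14335 had a log2 level of at least 5 on at least 3 arrays and were tested. A gene was called where its adjusted p in limma was below 0.05.

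The estrogen receptor, encoded by ESR1, is a ligand-bound transcription factor. With estrogen it binds DNA at estrogen response elements or through partner factors, recruits coactivators, and raises a set of direct target genes within hours. Cell cycle and replication genes usually follow later. HER2 signals through the MAPK and PI3K pathways, which can change how the estrogen receptor acts in luminal breast cancer cells.

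The 6 arrays were alike in their overall values. Array medians of all probe sets lay between 5.31 and 5.36. Arrays of the same group correlated between 0.992 and 0.996, and vehicle with estrogen arrays between 0.989 and 0.996. In limma's array weights, which are lower for arrays that depart more from their group, estrogen replicate 1 (0.44) and vehicle replicate 3 (0.58) stood lowest of the 24 arrays. ERBB2, the targeted gene, stood between 11.86 and 12.41 on the 6 arrays, and between 13.49 and 13.76 on the 6 control siRNA arrays of 4 h. The log2 difference of 3′ over 5′ control probe sets, which grows as RNA degrades, was 0.451 ± 0.069 for GAPDH with estrogen and 0.410 ± 0.101 with vehicle (SD, n = 3, 2-sided exact permutation p = 0.5). For ACTB it was 1.52 ± 0.704 and 1.32 ± 0.193 (SD, n = 3, 2-sided exact permutation p = 0.9), where 3 arrays against 3 cannot go below 0.1. The high ACTB spread came from estrogen replicate 1, at 2.30, which is also 1 of 3 arrays in the series that the labels number apart from the other 21. Estrogen replicate 3 has labels that disagree on its time, which is 24 h in 1 field and 4 h in the others. Luminal markers were well expressed: 11 of 12 had a probe set, all 11 passed the level filter, and their summed log2 level was 15.66 to 15.79 with vehicle and 15.77 to 15.91 with estrogen. Of 10 basal and mesenchymal markers with a probe set 5 passed the filter, with TWIST1 (mean log2 level 10.56 with vehicle and 10.35 with estrogen) and VIM (9.84 and 9.85) the highest, followed by FN1, CDH2 and ACTA2. KRT5, KRT14, SNAI2, ZEB1 and ZEB2 were below it, and the summed log2 level of the 10 was 11.33 to 11.47 with vehicle and 11.14 to 11.37 with estrogen. Of 14 fibroblast, leukocyte and endothelial markers with a probe set 7 passed, with COL1A1 (9.81 and 9.80) and VWF (7.13 and 7.41) the highest, followed by COL1A2, DCN, PECAM1, CD3E and LYZ. PTPRC, CD14, COL3A1, PDGFRB, LUM, CDH5 and KDR were below the filter, and the summed log2 level of the 14 was 10.35 to 10.48 with vehicle and 10.34 to 10.56 with estrogen. No gene of these 2 lists was called in limma, with 0 at an unadjusted p below 0.05, and the part of other cell types in the results was not tested.

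At 4 h the response was almost wholly upward. Of 14335 genes 100 (0.698%) were called, 95 higher (0.663%) and 5 lower (0.0349%) with estrogen. The rises included the known estrogen targets MYC, HEY2, TFF1, GREB1, PGR and RARA, next to PMAIP1, a promoter of cell death, and RASGRP1, an activator of RAS. A difference of at least 2-fold was reached by 29 of the rises and by 0 of the falls. On all 100 called genes the 3 estrogen arrays did not overlap the 3 vehicle arrays. Over all genes tested the 3 estrogen arrays all lay above the vehicle arrays for 943 genes (6.58%) and all below for 484 (3.38%). The count of calls was 64 without estrogen replicate 3, of which 62 were among the 100, and 94 without estrogen replicate 1, of which 80 were. When only the 6 arrays were in the fit, 28 genes were called, all higher and all among the 100. Of the rises named above MYC, HEY2, TFF1, RARA, PMAIP1 and RASGRP1 were among the 28, and GREB1 and PGR were not. In bulk RNA, a change in every cell and a larger change in some of the cells cannot be told apart.

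ESR1 itself did not pass. Its log2 level was 8.68, 8.60 and 9.13 on vehicle replicates 1 to 3 and 8.69, 8.79 and 9.01 on the estrogen replicates. The arrays overlapped, and the difference was 0.03 ± 0.15 (95% confidence interval -0.29 to 0.35, adjusted p = 0.979). ERBB2 did not pass either, at 0.11 ± 0.11 (95% confidence interval -0.12 to 0.34, adjusted p = 0.862). Of 15 tested steroid receptors and coregulators 2 rose and 0 fell, where 0.663% of all genes tested rose. The 2 were PGR, the progesterone receptor and a classical estrogen target, and FKBP4, a co-chaperone of steroid receptors. PGR stood at 10.42, 10.65 and 11.05 with vehicle and at 11.62, 12.28 and 12.76 with estrogen. Each estrogen array lay above each vehicle array, and the difference was 1.51 ± 0.25, a 2.85-fold rise (95% confidence interval 1.97 to 4.11, adjusted p = 0.00228). FKBP4 differed by 0.50 ± 0.08 (adjusted p = 0.00161) on its brightest probe set, and by 0.19 (adjusted p = 0.432) as the mean of its probe sets. The glucocorticoid receptor NR3C1 stood at -0.41 (adjusted p = 0.11) and the corepressor NRIP1, known as an estrogen target in other luminal lines, at 0.37 (adjusted p = 0.18), and neither passed. Of 12 luminal lineage transcription factors 0 were called in limma (median difference -0.07), with 3 at an unadjusted p below 0.05, which 1062 of all genes tested (7.41%) reached.

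Regulators known to be induced by estrogen rose in 12 of 21 tested genes and fell in 0, with a median difference of 0.71 against 0.02 over all genes tested, where 0.663% of genes rose. The group was chosen as estrogen-induced, so its direction is a description. MYC, the growth-promoting transcription factor, had the largest difference of all genes tested. Its log2 level was 7.60, 7.56 and 6.90 on the vehicle replicates and 9.54, 10.31 and 10.56 on the estrogen replicates, so the groups did not overlap. The difference was 2.78 ± 0.24, a 6.89-fold rise (95% confidence interval 4.88 to 9.73, adjusted p = 2.8e-07). It was 3.08 without estrogen replicate 1 and 2.58 without estrogen replicate 3. HEY2, a transcriptional repressor of the Notch pathway, stood at 6.11, 5.92 and 5.73 with vehicle and 7.83, 8.30 and 8.35 with estrogen. It had the smallest adjusted p of all genes (8.16e-08), with a difference of 2.24 ± 0.16, or 4.72-fold (95% confidence interval 3.74 to 5.97).

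**Figure D1:**
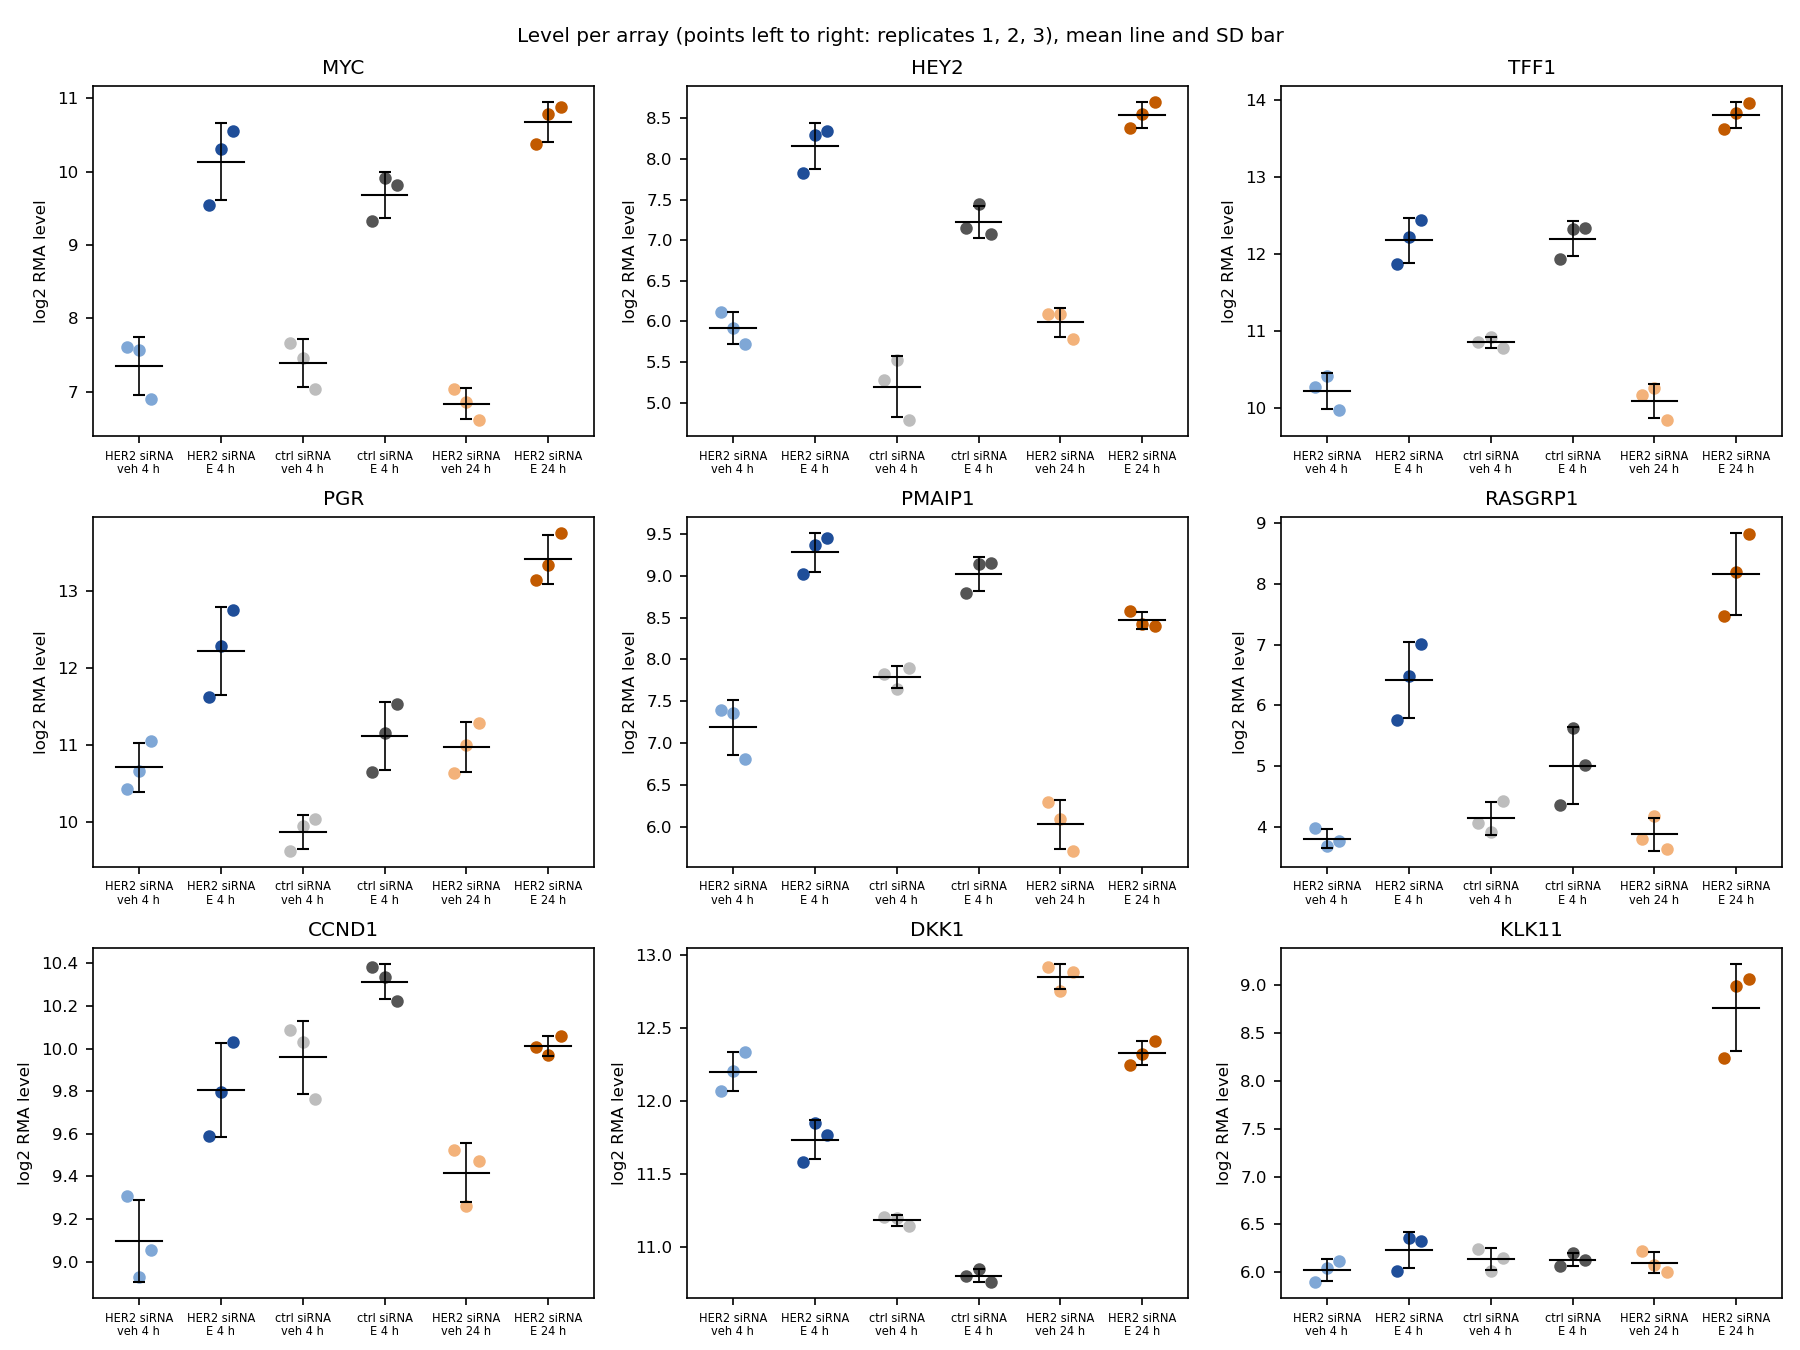
Log2 RMA level on each array for MYC, HEY2, TFF1, PGR, PMAIP1, RASGRP1, CCND1, DKK1 and KLK11 (vertical axis, a separate range for each gene) in 6 groups of 3 arrays: HER2 siRNA with vehicle or estrogen (E) at 4 h, control siRNA with vehicle or estrogen at 4 h, and HER2 siRNA with vehicle or estrogen at 24 h. Points are replicates 1, 2 and 3 from left to right, lines are means and bars the SD. With HER2 siRNA at 4 h the estrogen arrays of MYC (9.54 to 10.56) lie above its vehicle arrays (6.90 to 7.60), those of DKK1 lie below, and KLK11 stands highest on the 24 h estrogen arrays (8.24 to 9.07).

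RARA, the retinoic acid receptor alpha, and ZNF703, a transcriptional corepressor of luminal breast cancer, rose as well. RARA stood at 7.29, 7.10 and 7.36 with vehicle and 8.31, 8.48 and 8.51 with estrogen. All estrogen arrays lay above all vehicle arrays, and the difference was 1.18 ± 0.10 (adjusted p = 2.32e-07). ZNF703 rose by 1.19 ± 0.15 (adjusted p = 5.22e-05), from 8.16, 8.23 and 8.41 to 9.28, 9.38 and 9.73. The mean of probe sets gave smaller rises, 0.56 for RARA and 0.71 for ZNF703, still called. MYB and MYBL1, a pair of related transcription factors, rose by 1.26 ± 0.22 (adjusted p = 0.00359) and 1.81 ± 0.29 (adjusted p = 0.00119). MYBL1 stood below the log2 level of 5 on every vehicle array (3.81, 3.82 and 4.23) and above it on every estrogen array (5.25, 5.78 and 6.26), and its rise was 0.68 as the mean of probe sets. GREB1, a cofactor of the estrogen receptor, went from 8.23, 8.37 and 8.94 to 9.38, 10.43 and 10.64, with replicate 1 the lowest estrogen array. Its difference was 1.64 ± 0.27 (adjusted p = 0.00181), or 1.04 as the mean of probe sets. The GREB1 call ended with only the 6 arrays in the limma fit (adjusted p = 0.136). The ubiquitin ligase SIAH2 (0.94 ± 0.12), the RAS-related growth regulator RERG (0.92 ± 0.19), CCND1 (0.71 ± 0.11) and the histone demethylase KDM4B (0.49 ± 0.07) made up the rest of the 12. Among the 9 that did not pass were IRS1 (0.43), KLF10 (0.38), XBP1 (0.33) and TLE3 (0.12).

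The list of secreted, surface and transport proteins induced by estrogen rose in 13 of 38 tested genes, with 0 lower and a median difference of 0.34. Over all genes tested 0.663% rose and the median difference was 0.02. This list too was chosen as estrogen-induced, with earlier results of these data known, so its direction is a description. Its name does not hold for every member, since it includes intracellular proteins such as CISH and HSPB8. TFF1, a secreted trefoil peptide and a standard marker of estrogen receptor activity, stood at 10.27, 10.43 and 9.98 with vehicle and 11.87, 12.23 and 12.44 with estrogen. The groups were far apart relative to the spread in either, and the rise was 1.95 ± 0.16, or 3.87-fold (95% confidence interval 3.08 to 4.87, adjusted p = 2.28e-07). SUSD3, a membrane protein, rose by 1.58 ± 0.14 (adjusted p = 2.8e-07), from 5.76, 5.88 and 5.74 to 7.16, 7.34 and 7.62, and by 0.73 as the mean of probe sets. CISH, an inhibitor of cytokine signalling, rose by 1.26 ± 0.11 (adjusted p = 3.29e-07), and MREG, melanoregulin, by 1.23 ± 0.11 (adjusted p = 8.36e-07). STC2, a secreted glycoprotein, went from 7.55, 7.15 and 7.22 to 8.20, 8.58 and 9.11 (1.33 ± 0.21). TPBG (0.95 ± 0.10), OLFM1 (0.73 ± 0.12), NHERF1 (0.59 ± 0.11) and EEIG1 (0.55 ± 0.08) were smaller rises. Members without a call ranged from FLRT3 at -0.81 (adjusted p = 0.41) to KCNK5, a potassium channel, at 0.94 (adjusted p = 0.11), and included the secreted CXCL12 (0.55, adjusted p = 0.2) and AGR2 (-0.04).

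**Figure D2:**
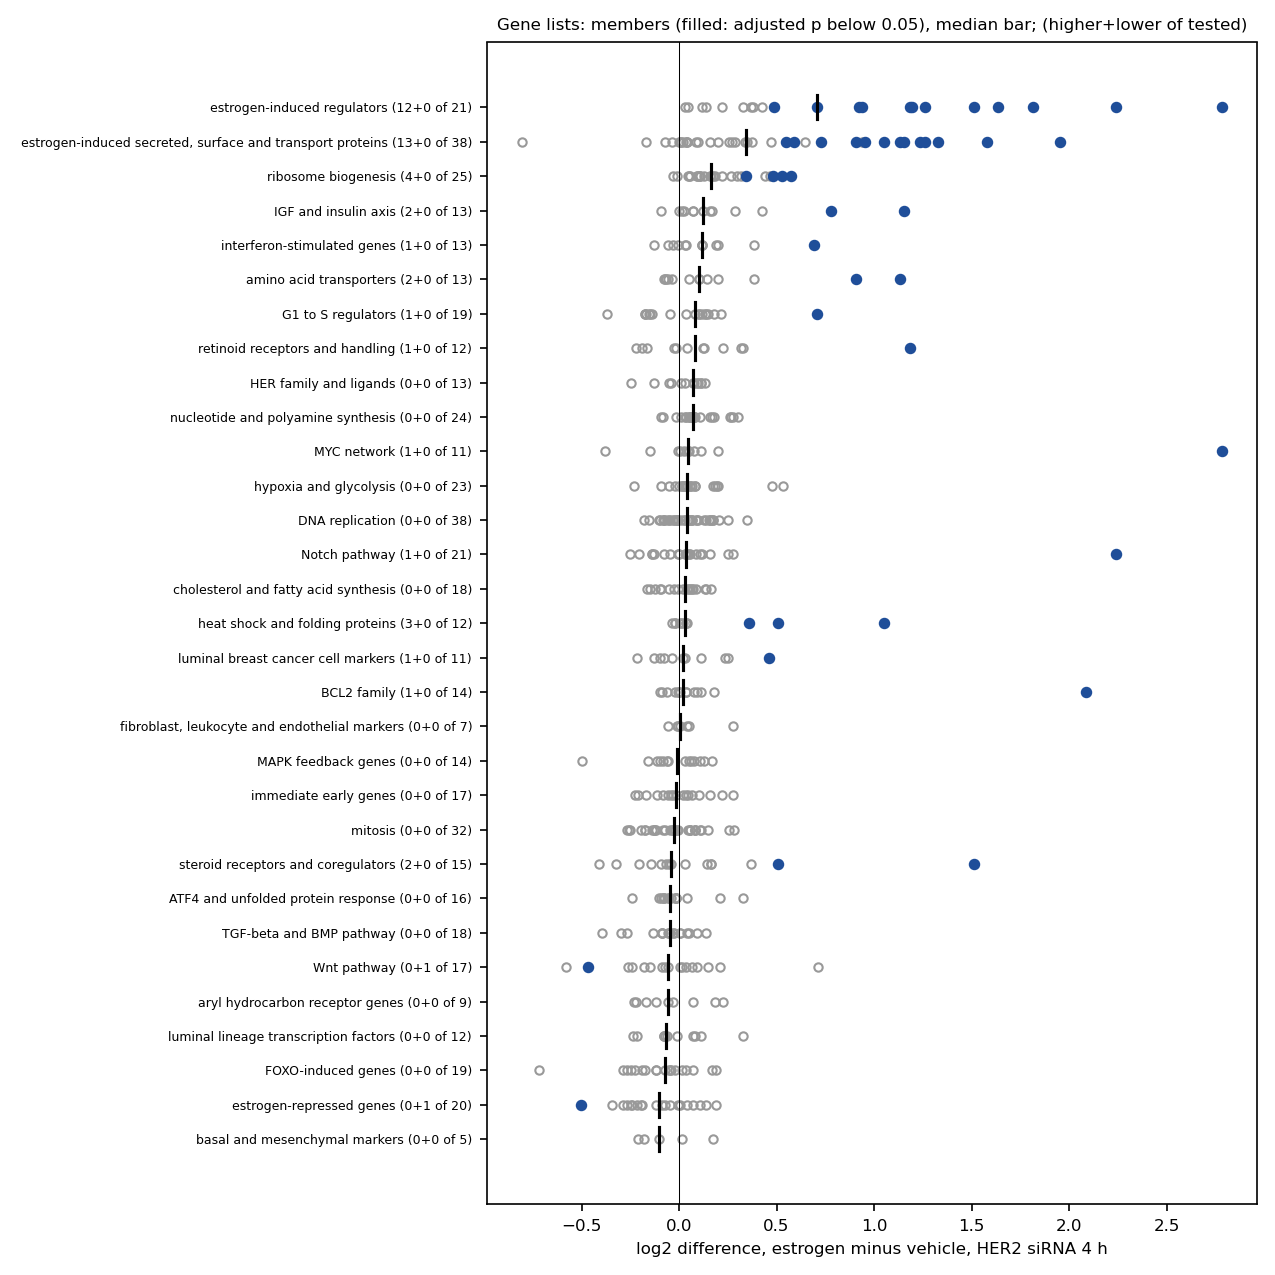
Log2 difference, estrogen minus vehicle with HER2 siRNA at 4 h (horizontal axis), for every tested member of 31 gene lists (rows, ordered by median; in brackets the number called higher plus lower, of the number tested). Filled points had an adjusted p below 0.05, open points did not, and black bars are list medians. The estrogen-induced regulators (median 0.71) and the secreted, surface and transport proteins (median 0.34) hold most of the filled points, and the replication and mitosis lists hold none.

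The insulin-like growth factor axis had 2 calls among 13 tested genes, where 0.698% of all genes tested were called. Both were in binding proteins, which hold these growth factors outside the cell. IGFBP4 stood at 7.37, 7.41 and 7.39 with vehicle and 8.44, 8.52 and 8.67 with estrogen, a rise of 1.15 ± 0.11 (adjusted p = 1.23e-06) with little spread in either group. IGFBP5 went from 11.33, 11.16 and 11.29 to 11.73, 12.21 and 12.18 (0.78 ± 0.11, adjusted p = 0.000374), with estrogen replicate 1 the lowest of the 3. Of 13 amino acid transporters SLC6A14 (1.13 ± 0.23, adjusted p = 0.0145) and SLC7A5 (0.91 ± 0.20, adjusted p = 0.0253) rose, where 0.663% of all genes tested rose. The vehicle arrays of both transporters spread widely, from 9.30 to 10.24 for SLC7A5. The SLC6A14 call ended without vehicle replicate 1 or 2 or estrogen replicate 2 or 3 (adjusted p = 0.0866, 0.0798, 0.0986 and 0.157), and the SLC7A5 call without vehicle replicate 2 or 3 or estrogen replicate 1 or 3 (adjusted p = 0.0614, 0.233, 0.183 and 0.0624).

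Other rises lay outside the estrogen target lists. PMAIP1, which encodes the pro-apoptotic protein NOXA, was the 1 gene called of 14 in the BCL2 family. It stood at 7.39, 7.36 and 6.82 with vehicle and 9.02, 9.37 and 9.45 with estrogen. The rise was 2.09 ± 0.16, or 4.26-fold (95% confidence interval 3.38 to 5.35, adjusted p = 1.03e-07), and estrogen replicate 1 was again the lowest of its group. RASGRP1, an exchange factor that loads RAS with GTP, stood at 3.99, 3.68 and 3.77 with vehicle, below the level filter, and at 5.76, 6.48 and 7.01 with estrogen. Its difference of 2.60 ± 0.32 (adjusted p = 5.41e-05) is set against levels below the filter, so its size is uncertain. RBM24, an RNA-binding protein, was likewise below 5 on its vehicle arrays (4.40, 4.11 and 3.97), and reached 5.84, 5.78 and 5.63 (1.59 ± 0.21, adjusted p = 0.000118).

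MPPED2, a metallophosphoesterase, rose by 2.18 ± 0.39 (adjusted p = 0.00364) from 6.89, 6.78 and 7.50 to 8.67, 9.24 and 9.80. Both groups were widely spread without overlapping. PPM1K, a mitochondrial phosphatase that acts on branched-chain amino acid breakdown, rose by 1.93 ± 0.23 (adjusted p = 4.79e-05), and by 1.15 as the mean of probe sets. STARD13 rose by 1.47 ± 0.23 (adjusted p = 0.000996), from 6.60, 6.84 and 7.60 to 8.11, 8.44 and 8.91, or by 0.94 as the mean of probe sets. TSKU, a secreted proteoglycan, rose by 1.43 ± 0.12 (adjusted p = 2.8e-07), and its antisense gene TSKU-AS1 was also called (0.85). The uncharacterised gene C6orf141 rose by 1.51 ± 0.20 (adjusted p = 0.000181). With only the 6 arrays in the limma fit, neither STARD13 (adjusted p = 0.109) nor C6orf141 (adjusted p = 0.0703) was called.

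Among the lists of growth and the cell cycle, ribosome biogenesis genes had calls at 4 h, and those of nucleotide synthesis, replication and mitosis had none. A link of any of these genes to MYC was not tested. Among 11 genes of the MYC network only MYC was called. Of 25 ribosome biogenesis genes 4 rose and 0 fell (median 0.16), where 0.663% of all genes rose. The list was chosen with earlier results of these data known, so its share is a description. The rises were NOP16 (0.57 ± 0.09), RRS1 (0.53 ± 0.09), BYSL (0.48 ± 0.09) and POLR1A (0.34 ± 0.08), a subunit of RNA polymerase I. NOP16, a nucleolar protein, stood at 9.30, 9.30 and 8.97 with vehicle and 9.84, 9.69 and 9.76 with estrogen, without overlap, and differed by 0.28 (adjusted p = 0.139) as the mean of probe sets. POLR1A sat at the threshold (adjusted p = 0.04996) and lost its call without any 1 of the 6 arrays (adjusted p = 0.104 to 0.21), and BYSL lost its call without vehicle replicate 3 (adjusted p = 0.0518). Only 2 of the list were called as the mean of probe sets or without vehicle replicate 3. No gene was called among 24 of nucleotide and polyamine synthesis (median 0.07), 38 of DNA replication (median 0.04) or 32 of mitosis (median -0.03). At an unadjusted p below 0.05 in limma the numbers were 5, 2 and 3, next to 11 of the 25 ribosome biogenesis genes and 7.41% of all genes tested. Of 19 G1 to S regulators only CCND1, cyclin D1, was called. It stood at 9.31, 8.93 and 9.06 with vehicle and 9.59, 9.79 and 10.03 with estrogen (0.71 ± 0.11, adjusted p = 0.00161). CCND1 was not called with only the 6 arrays in the limma fit (adjusted p = 0.167). The cyclin CCNE2 stood at -0.37 (adjusted p = 0.088) and E2F1 at 0.13 (adjusted p = 0.87).

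Pathways next to HER2 and to stress were mostly without calls. None was called among 17 immediate early genes, 14 MAPK feedback genes, 13 HER family members and ligands, 19 FOXO-induced genes, 18 of the TGF-beta and BMP pathway, 9 aryl hydrocarbon receptor genes, 18 of cholesterol and fatty acid synthesis, 16 of ATF4 and the unfolded protein response and 23 of hypoxia and glycolysis. Their medians lay between -0.07 and 0.07. At an unadjusted p below 0.05 in limma the numbers, in the same order, were 1, 1, 0, 2, 1, 0, 0, 1 and 5, next to 7.41% of all genes tested. The largest of these, 5 of 23, was in hypoxia and glycolysis. Of 21 Notch pathway genes only HEY2 was called, and of 12 retinoid genes only RARA. Of 12 heat shock and folding proteins 3 rose, FKBP4 and the small heat shock proteins HSPB8 (1.05 ± 0.21) and HSPB1 (0.36 ± 0.08), with the list's median at 0.03. Over all genes tested 0.663% rose, and FKBP4 was not called as the mean of its probe sets in limma (adjusted p = 0.432). HSPB8 was not called without vehicle replicate 2 or 3 or estrogen replicate 2 or 3 (adjusted p = 0.0614, 0.0997, 0.0596 and 0.0634). HSPB1 was not called without vehicle replicate 1 or 2 or any 1 of the 3 estrogen arrays (adjusted p = 0.0992, 0.0773, 0.0692, 0.0733 and 0.11). Among 13 interferon-stimulated genes HERC5, a ligase for ISG15, was called at 0.69 ± 0.15 (adjusted p = 0.021). Its vehicle arrays (4.26, 4.57 and 4.31) and estrogen replicates 2 and 3 (4.95 and 4.95) stood below 5, and the call ended without vehicle replicate 1 or 3 or estrogen replicate 1 (adjusted p = 0.122, 0.123 and 0.164). KRT19, a keratin and the 1 luminal marker called of 11, rose by 0.46 ± 0.09 (adjusted p = 0.0089). That call ended without vehicle replicate 2 (adjusted p = 0.0641) or estrogen replicate 3 (adjusted p = 0.105), and as the mean of probe sets (adjusted p = 0.201).

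None of the 5 falls reached 2-fold, and only DKK1 kept its call when each of the 6 arrays was left out in turn. DKK1, a secreted inhibitor of Wnt signalling, was the 1 gene called of 17 in the Wnt pathway. It stood at 12.07, 12.20 and 12.33 with vehicle and 11.58, 11.85 and 11.77 with estrogen, a difference of -0.47 ± 0.08 (adjusted p = 0.00237), and its call ended only with the 6 arrays alone in the fit (adjusted p = 0.345). IL1R1, the interleukin 1 receptor and the 1 gene called of 20 estrogen-repressed genes (median -0.10), stood at 9.39, 9.21 and 9.59 with vehicle and 8.81, 8.90 and 8.98 with estrogen. The difference was -0.50 ± 0.10 (adjusted p = 0.00997), and the call ended without vehicle replicate 3 (adjusted p = 0.0997), without estrogen replicate 1 (adjusted p = 0.0614) and as the mean of probe sets (adjusted p = 0.0733). CMPK2, a mitochondrial nucleotide kinase induced by interferon, had the largest fall, from 6.55, 6.12 and 6.50 to 5.87, 5.63 and 5.92 (-0.58 ± 0.12, adjusted p = 0.0204). Without vehicle replicate 1 or 3 or estrogen replicate 2 its adjusted p was 0.143, 0.146 and 0.161. KRTAP5-9, a keratin-associated protein (-0.39 ± 0.08, adjusted p = 0.0151), was not called without vehicle replicate 1 or 3 or estrogen replicate 2 or 3 (adjusted p = 0.0885, 0.122, 0.0733 and 0.059). S1PR3, a sphingosine 1-phosphate receptor (-0.31 ± 0.06, adjusted p = 0.0135), was not called without vehicle replicate 1 or estrogen replicate 1 or 3 (adjusted p = 0.0862, 0.0561 and 0.0538). As the mean of probe sets S1PR3 differed by -0.16 and was not called (adjusted p = 0.63).

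The promoters of the rises were searched for the letters that the estrogen receptor is known to bind. RefSeq sequences of GRCh38.p14 gave the 250 bases before each annotated start for 11448 of the tested genes and 77 of the 95 rises, and a gene was counted if any of its windows held the letters. The full palindrome of the estrogen response element, GGTCA and TGACC with any 3 bases between them, was found for 2 of these genes (0.0175%) and in 0 of the 77 rises. A single arm of it, AGGTCA, on either strand, was found for 1455 genes (12.7%) and for 9 of the 77 rises (11.7%), a share close to that of all genes. A palindrome that follows an A also holds the single arm, so the searches can overlap. The 4 rises of at least 2-fold with such an arm are shown as the windows a reader would inspect first, 5′ to 3′ in the direction of the gene, with the arm or its reverse complement in capitals. They are STARD13 (chr13:33186092-33186341, minus strand), FGD3 (chr9:92974219-92974468, plus strand), a guanine exchange factor for CDC42 that rose by 1.31 ± 0.17, MREG (chr2:216034097-216034346, minus strand) and RARA (chr17:40308930-40309179, plus strand).
STARD13: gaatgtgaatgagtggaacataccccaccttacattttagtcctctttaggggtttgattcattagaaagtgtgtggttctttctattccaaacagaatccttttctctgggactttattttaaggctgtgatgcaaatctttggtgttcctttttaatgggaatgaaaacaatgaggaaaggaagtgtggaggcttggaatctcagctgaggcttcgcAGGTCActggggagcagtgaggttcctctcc
FGD3: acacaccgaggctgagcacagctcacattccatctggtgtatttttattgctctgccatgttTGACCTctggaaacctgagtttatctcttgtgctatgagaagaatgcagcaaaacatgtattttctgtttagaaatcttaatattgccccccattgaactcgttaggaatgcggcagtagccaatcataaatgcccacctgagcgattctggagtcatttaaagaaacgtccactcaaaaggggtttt
MREG: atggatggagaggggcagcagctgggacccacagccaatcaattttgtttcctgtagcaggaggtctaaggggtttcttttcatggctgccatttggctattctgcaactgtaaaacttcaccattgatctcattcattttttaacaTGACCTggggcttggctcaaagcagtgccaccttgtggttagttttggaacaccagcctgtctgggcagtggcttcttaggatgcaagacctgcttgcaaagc
RARA: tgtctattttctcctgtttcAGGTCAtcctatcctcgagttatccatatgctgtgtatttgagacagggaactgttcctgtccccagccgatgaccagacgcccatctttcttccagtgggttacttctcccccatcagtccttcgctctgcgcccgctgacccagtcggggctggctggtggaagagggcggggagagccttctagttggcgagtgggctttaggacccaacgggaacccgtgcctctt
Counted back from the start, the first base of the match was at 31 in STARD13, 188 in FGD3, 103 in MREG and 230 in RARA. Each of these genes has 3 or 4 annotated starts, and the window shown is 1 of them. A match describes the letters of the window and is neither a binding site nor a cause.

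Estrogen was also given for 4 h to cells with control siRNA, and no array is shared between the comparisons. There 49 genes (0.342%) were called, 48 higher (0.335%) and 1 lower (0.00698%), and 38 of them were called with HER2 siRNA too. That is 38% of the HER2 siRNA calls and 77.6% of the control siRNA calls. Of the 100 genes called with HER2 siRNA, 98 differed in the same direction with control siRNA, the exceptions being KRTAP5-9 (0.05 with control siRNA) and the noncoding ZNF561-AS1 (0.43 with HER2 siRNA and -0.07 with control siRNA). The median over the 95 rises was 0.71 with HER2 siRNA and 0.47 with control siRNA, and 81 of the 95 were larger with HER2 siRNA. Genes called in 1 fit are chosen for a large value there. Over the 48 rises called with control siRNA the medians were 0.95 with HER2 siRNA and 0.83 with control siRNA, and 23 of the 48 were larger with HER2 siRNA. By list, 10 of the 21 regulators, 8 of the 38 secreted, surface and transport proteins and 7 of the 25 ribosome biogenesis genes rose with control siRNA, against 12, 13 and 4 with HER2 siRNA. The 11 genes called with control siRNA alone were DDX21, ZNF121, NOB1, WDR3, POLR1B, POLR1C, RIOK1, LYAR, PUS1, NOD2 and EGR3.

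The difference between the 2 responses was tested for every gene, and 0 of 14335 (0%) passed. The smallest adjusted p in limma was 0.999, and 403 genes (2.81%) had an unadjusted p below 0.05. The median 95% confidence interval for a single gene, before any adjustment, reached 0.32 to either side, and differences well above that did not pass the adjusted test either. RARA rose by 1.18 with each siRNA, a difference of 0.00 between them (95% confidence interval -0.29 to 0.29). HEY2 differed by 0.21 (95% confidence interval -0.27 to 0.69), GREB1 by 0.06 (-0.73 to 0.85) and MYC by 0.49 (-0.22 to 1.19). For 3 rises chosen after their values were seen the interval for the single gene lay above 0, without passing the adjustment. RASGRP1 rose by 2.60 with HER2 siRNA and stood at 0.86 with control siRNA (adjusted p = 0.855), 1.74 apart (0.80 to 2.68). Its control siRNA estrogen arrays spread from 4.37 to 5.63, around the level filter, and its vehicle arrays were below it with either siRNA. PMAIP1 was 0.86 apart (0.39 to 1.33) and SUSD3 0.76 apart (0.36 to 1.16), and both rose with either siRNA. On the other side EGR3, an immediate early transcription factor also chosen after its values were seen, stood at 0.22 ± 0.21 with HER2 siRNA (adjusted p = 0.855) and rose by 1.05 ± 0.21 with control siRNA (adjusted p = 0.0209). The difference between them was -0.82 (95% confidence interval -1.44 to -0.21, adjusted p = 0.999).

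**Figure D3:**
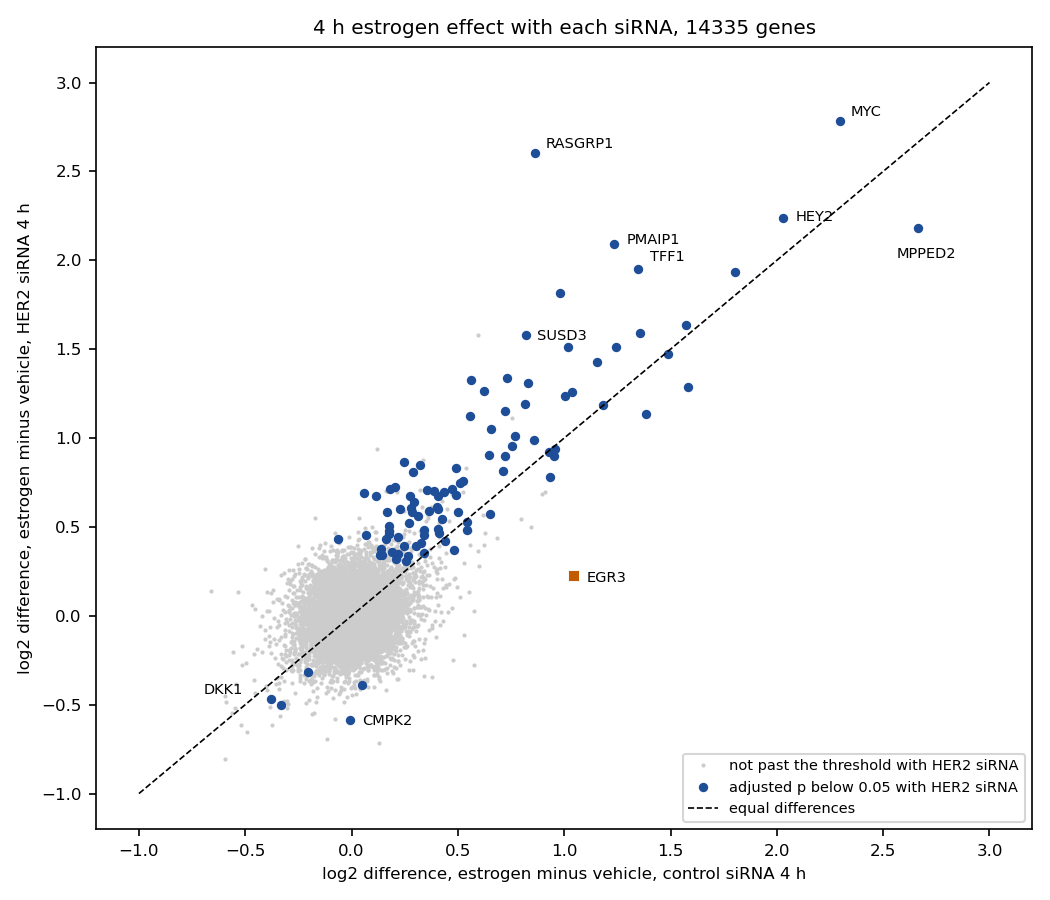
Log2 difference, estrogen minus vehicle at 4 h, with control siRNA (horizontal axis) and HER2 siRNA (vertical axis) for 14335 genes. Blue points are the 100 genes called with HER2 siRNA, grey points the rest, the orange square is EGR3 and the dashed line marks equal differences. Most blue points lie to the upper right on both axes, and 81 of the 95 rises lie above the line.

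At 24 h the response of HER2 siRNA cells was broader. There 885 genes (6.17%) were called, 613 higher (4.28%) and 272 lower (1.90%), and 796 of them had no call at 4 h. The early rises lasted: 95 of 95 were higher at 24 h and 86 were called, with a median of 0.99 at 24 h. Of the 5 falls 3 (DKK1, IL1R1 and S1PR3) were also called lower at 24 h. The replication, mitosis and nucleotide lists, which had no call at 4 h, had calls by then, with 21 of 38 replication genes, 11 of 32 mitosis genes and 12 of 24 nucleotide and polyamine genes higher. Ribosome biogenesis had 14 of 25 genes higher at 24 h and 4 at 4 h. By the test of the change between the times, described next, MCM6 passed among the replication genes (0.10 at 4 h and 0.70 at 24 h), as did IMPDH2 (0.03 and 0.58), CTPS1 (0.16 and 0.93) and RRM2 (0.07 and 1.01) among the nucleotide and polyamine genes, and none of the mitosis or ribosome biogenesis genes did.

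The difference between the 24 h and the 4 h response passed for 74 genes (0.516%), 57 with a higher value at 24 h (0.398%) and 17 with a lower one (0.119%). The count was 38 without HER2 siRNA estrogen 24 h replicate 3, all among the 74, and 124 with only genes at a log2 level of at least 7. A block for equal replicate numbers gave 198. Of the 95 early rises 14 were larger at 24 h by this test and 0 smaller. TCN1, a vitamin B12-binding protein, had the largest change, with a difference of 0.64 ± 0.26 at 4 h (adjusted p = 0.568) and 4.31 ± 0.26 at 24 h. Its estrogen arrays stood at 8.66, 8.07 and 8.16 at 4 h, next to 7.96, 7.49 and 7.51 with vehicle, and at 11.80, 11.95 and 11.98 at 24 h. The kallikrein proteases KLK11 and KLK10 stood at 0.21 ± 0.18 and 0.40 ± 0.16 at 4 h and rose by 2.67 ± 0.18 and 2.39 ± 0.16 at 24 h. On the estrogen arrays KLK11 was at 6.02, 6.36 and 6.32 at 4 h and 8.24, 8.99 and 9.07 at 24 h, so that the late arrays were all above the early ones. STC2, MYBL1 and TFF1 rose at both times and more at 24 h, by 3.19, 3.67 and 3.71. The MYBL1 change between the times was called at an adjusted p of 0.038, and at 3.02e-05 with that block. Without the block that call ended in 9 of 12 fits that each left out 1 array of the 4 groups, with an adjusted p between 0.0519 and 0.135 (all but HER2 siRNA estrogen 24 h replicate 1, vehicle 4 h replicate 2 and estrogen 4 h replicate 3), and as the mean of probe sets (0.52, adjusted p = 0.102).

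Other genes without a call at 4 h were lower with estrogen at 24 h. GRIK2, a glutamate receptor subunit, stood at 0.41 ± 0.21 at 4 h (adjusted p = 0.712) and fell by 1.22 at 24 h, from 6.74, 7.39 and 6.95 with vehicle to 5.93, 5.73 and 5.77 with estrogen. The change between the times was -1.63 ± 0.30 (adjusted p = 0.0101). UBE2QL1, a ubiquitin-conjugating enzyme, REG4, a secreted lectin, CELF2, an RNA-binding protein, and MME, the peptidase neprilysin, had no call at 4 h (-0.31, 0.05, -0.11 and -0.06) and fell at 24 h by 1.52, 1.14, 1.27 and 0.94. The REG4 change lost its call without HER2 siRNA vehicle 24 h replicate 1 or 3, estrogen 24 h replicate 3 or estrogen 4 h replicate 3 (adjusted p = 0.0566, 0.0511, 0.0701 and 0.054). CISH, by contrast, differed by 1.26 ± 0.11 at both times. With only the groups compared in limma, the changes of GRIK2, STC2, MYBL1 and REG4 were not called (adjusted p = 0.0838, 0.0779, 0.114 and 0.126). Those of TCN1, KLK11, KLK10, UBE2QL1, CELF2 and MME were. As the mean of probe sets GRIK2, REG4 and CELF2 were below the level filter and had no value.

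**Figure D4:**
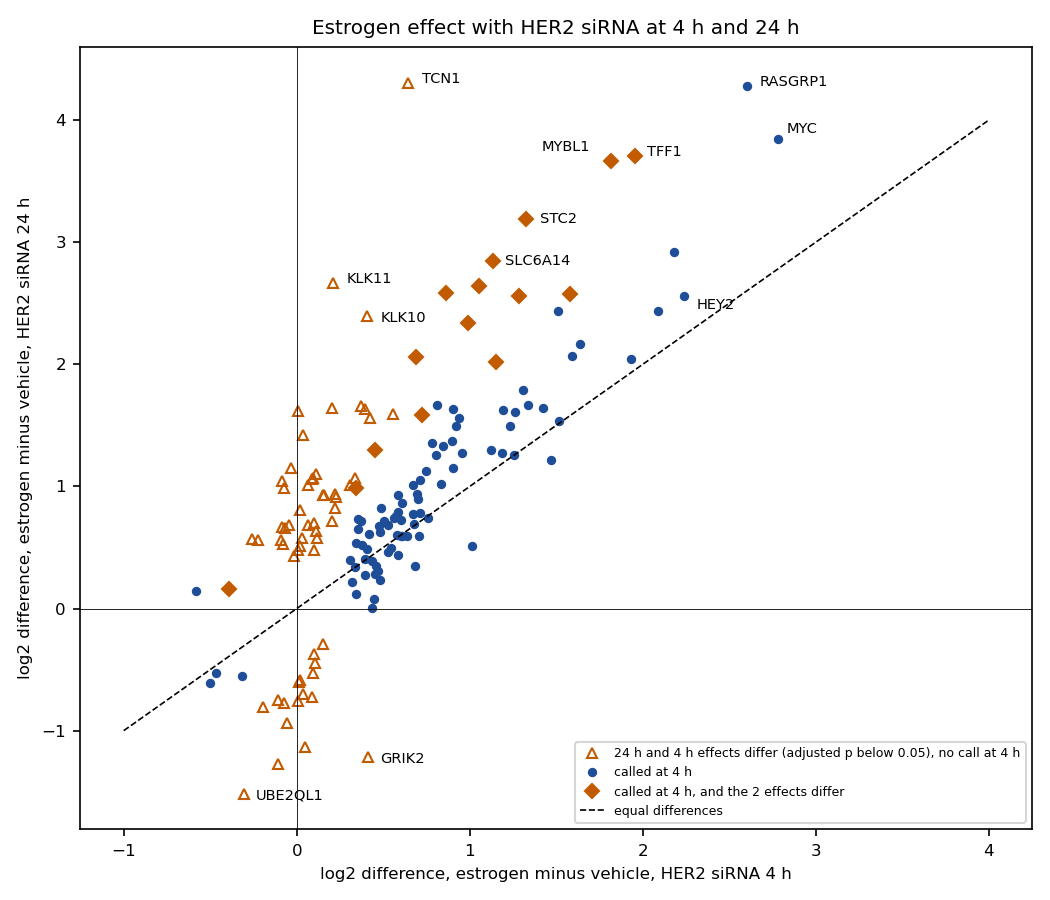
Log2 difference, estrogen minus vehicle with HER2 siRNA, at 4 h (horizontal axis) and 24 h (vertical axis), for the 100 genes called at 4 h (filled) and the genes without a call at 4 h whose 2 responses differed (open triangles). Diamonds mark 4 h calls whose responses differed, and the dashed line marks equal differences. The early rises stay above 0 at 24 h and most lie above the line, while TCN1 and KLK11 stand at 0.64 and 0.21 at 4 h and at 4.31 and 2.67 at 24 h.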

How the data were processed

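The authors deposited 1 log2 level per probe set and array, made by RMA, per the submitters' processing notes, from biotin-labelled RNA on HG-U133 Plus 2.0 arrays. Which RMA version was used is not given in the sources used here. RMA shares 1 distribution over arrays, so a shift of all genes together would not show. Arrays were grouped by title into 8 groups of 3, and since no label ties replicates to separate cultures, p-values reflect the spread among these arrays, which may be technical. The number of arrays limits the precision.

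Each gene was read from its probe set with the highest mean over the 24 arrays, which in the figures and text is called the brightest, and tested if it reached a log2 level of 5 on at least 3 arrays. Names came from the platform annotation. A limma 3.58.1 model in R 4.3.3 with 1 mean per group used all 24 arrays (prior degrees of freedom 4.92, total 20.9), with p-values adjusted by Benjamini and Hochberg over all genes tested. It was tested on simulated data. Promoters and figures were made in Python 3.11.15 with matplotlib 3.10.9.

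Genes named by rule were up to 15 called genes each way with the largest difference and no overlap of arrays, from each list up to 4 called members by adjusted p, ERBB2 and ESR1, and for differences of effects up to 5 each way. Other genes are list members or were chosen after their values were seen. The members and lists were chosen with earlier results of these data known.

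Equal replicate numbers were checked for pairing by the correlation of deviations from the group means between the vehicle and estrogen arrays. With HER2 siRNA at 4 h this correlation was 0.21, -0.04 and 0.56, against a median of -0.18 for other pairs of arrays. Only 2 of the 3 exceeded 0.1, so the numbers were not taken to pair the 4 h arrays, though pairing is not excluded. At 24 h the correlation was 0.35, 0.38 and 0.59. All 3 exceeded 0.1 there, so the numbers may pair the 24 h arrays. The comparison of the times uses both, and its count with the block is given beside that without. The alternatives were other level filters, the replicate number as a block, leaving out arrays, the mean of probe sets or every probe set, only the groups compared, equal medians, quantile normalisation, array weights, a trend with a robust prior, and a covariate for the GAPDH 3′ to 5′ difference.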

Additional observations from a re-analysis of the deposited data

Results flagged for a closer look

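With HER2 siRNA the estrogen response differed between 24 h and 4 h for 74 genes, by a test of the difference itself in limma. Among the genes described, the change (24 h minus 4 h, log2) was 3.66 for TCN1, 2.46 for KLK11, 1.99 for KLK10, 1.86 for STC2, 1.85 for MYBL1, 1.76 for TFF1, 1.71 for SLC6A14, 1.58 for HSPB8, 1.37 for HERC5, 1.00 for SUSD3 and 0.87 for IGFBP4, all larger at 24 h. KRTAP5-9 changed by 0.55, from a fall at 4 h to 0.16 at 24 h. GRIK2 (-1.63), UBE2QL1 (-1.21), REG4 (-1.19), CELF2 (-1.16) and MME (-0.88) were lower at 24 h than at 4 h. As the mean of probe sets the change was 1.06 for KLK10. HERC5, an interferon-stimulated gene, stood at 5.31, 4.95 and 4.95 with estrogen at 4 h and at 7.04, 6.58 and 6.58 at 24 h, next to 4.58, 4.77 and 4.66 with vehicle at 24 h. Groups of 3 arrays were not searched for outlying arrays.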

How the results depend on the processing

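The count of 100 genes called at 4 h rose to 153 in a fit with replicate block, which kept all 100, and fell to 28 with only the groups compared; leaving out 1 array at a time it was 64 to 95. The numbers were not taken to pair the 4 h arrays, though pairing is not excluded, so the block result is given for its count alone. The 74 genes whose response changed between the times became 124 with a log2 level of at least 7, 198 with the block, 129 with the block and the number series, 20 with only the groups compared, and 38 to 111 leaving out 1 array at a time. Of the difference between siRNAs at 4 h, 0 genes were called in limma under every alternative run. Reversed values were in genes without a call: ESR1 was -0.0058 with the block and number series and -0.071 to 0.19 without 1 array (-0.035, -0.071 and -0.062 without vehicle replicate 1, vehicle replicate 2 and estrogen replicate 3), and ERBB2 was -0.0064 without vehicle replicate 1 and up to 0.27 without another array. The cause was not tested. With only the groups compared the calls were 6 in the regulators, 7 in the secreted, surface and transport proteins and 0 in ribosome biogenesis. Of the 40 genes named for the 4 h response, 12 lost a call in at least 1 of the fits without 1 array and 22 in at least 1 other alternative. All 22 lost it with only the groups compared. That fit has fewer arrays and takes the spread from those arrays alone. They include estrogen replicate 1 and vehicle replicate 3 of 4 h, with the lowest array weights of the series (0.44 and 0.58). The reason for the lost calls was not tested. Several of the 22 genes also lost their call elsewhere, such as FKBP4, NOP16 and KRT19 as the mean of probe sets and HERC5 and SLC7A5 with array weights.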

Other observations

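Of the 95 rises 60 lay outside the lists. Those named here were chosen after their values were seen. NPY1R, a neuropeptide Y receptor, stood between 8.98 and 9.37 with vehicle and at 9.81 or more with estrogen (1.34 ± 0.23, adjusted p = 0.00237 in limma). SLC22A5, a carnitine transporter, rose by 0.90 ± 0.09 (adjusted p = 1.39e-06) with both groups tightly spread, and ADCY9, an adenylate cyclase, by 1.01 ± 0.13. DEPTOR, an inhibitor of mTOR, rose by 0.99 ± 0.14 at 4 h and 2.34 at 24 h. DSCAM-AS1, a long noncoding RNA of luminal breast cancer, rose by 0.86 ± 0.15 at 4 h, stood at 0.25 with control siRNA (adjusted p = 1.00), and rose by 2.58 at 24 h with HER2 siRNA. HERC6, next to HERC5 in its gene family, rose by 0.81 ± 0.14 with HER2 siRNA and 0.71 with control siRNA. The difference between the siRNAs passed in limma for neither DSCAM-AS1 nor HERC6, since 0 of 14335 genes passed that test. PIK3R1, the regulatory subunit of PI3K (0.61 ± 0.14), LMO4, a LIM domain regulator (0.71 ± 0.11), and AXIN1, a scaffold of Wnt signalling (0.44 ± 0.09), rose as well, and AXIN1 stood at 0.08 at 24 h.

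Estrogen replicate 1 of 4 h had the lowest of the 3 levels for 62 of the 95 rises (65.3%), against 38.3% of all genes tested. The median rise over the 95 genes, set against the mean of the vehicle arrays, was 0.60 on replicate 1, 0.70 on replicate 2 and 0.92 on replicate 3. In the same genes the array numbered 1 was the lowest for 64 (67.4%, against 34.3% of all genes) with control siRNA and estrogen at 4 h, and for 73 (76.8%, against 37.9%) with HER2 siRNA and estrogen at 24 h. It was the lowest for 35 (36.8%, against 32.8%) on the HER2 siRNA vehicle arrays of 4 h. Estrogen replicate 3 of 4 h, the array with 24 h in 1 label field, had the highest of the 3 levels for 69 of the 95 rises (72.6%, against 27% of all genes tested). The array numbered 3 was the highest for 36 (37.9%, against 25.8%) with control siRNA and estrogen at 4 h, for 71 (74.7%, against 41.5%) with HER2 siRNA and estrogen at 24 h, and for 31 (32.6%, against 33.3%) on the HER2 siRNA vehicle arrays of 4 h. Without estrogen replicate 3 of 4 h, 64 genes were called at 4 h. Among these arrays only estrogen replicate 1 of 4 h is numbered apart in the labels, and the part of array handling or of the doubtful time label in this pattern was not tested.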
